A study of Homo sapiens with 4 samples.

Results

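Colony-stimulating factors are secreted or membrane-bound proteins that direct the growth, survival and activation of myeloid cells. The genes described here are 5 ligands (CSF1, CSF2, CSF3, IL34 and KITLG) and 2 receptor chains (CSF2RA and CSF3R), picked as a gene family by their names, with earlier results of these data known. All 7 were found by symbol among 61228 features in the count files, and 5 of them, the ligands, had enough reads to be tested, out of 19159 genes tested in all. RNA-seq was carried out on H1792, an established human lung cancer cell line labelled as wild type. Cells were kept for 96 h with DMSO, the solvent control, or with ACBI1, whose dose the labels write as 1 mM, a unit that the counts cannot check. ACBI1 is a degrader (PROTAC) that brings the chromatin-remodelling ATPases SMARCA2 and SMARCA4, and the related subunit PBRM1, to the VHL ubiquitin ligase. It acts on protein, so transcript counts do not check that its targets were lost. The series concerns SMARCA4-mutant lung cancer and immune signalling, and the question here is how loss of these remodellers bears on the growth factors for myeloid cells. Each group held 2 libraries of the same line, numbered as replicates. Nothing in the labels says that they came from separate cultures, so the p-values measure only the spread between these libraries, which may be technical.

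As background, CSF2 (GM-CSF) and CSF3 (G-CSF) are short-lived inducible transcripts in epithelial and stromal cells, and both are switched on by IL-1, TNF and NF-kB signalling. CSF2 signals through CSF2RA paired with the shared chain CSF2RB, and CSF3 through CSF3R, which drives neutrophil production. CSF1 (M-CSF) and IL34 differ in sequence but bind the same receptor, CSF1R, and maintain macrophages. KITLG (stem cell factor) acts on KIT on mast cells and blood progenitors. In tumours these ligands are known for drawing in or shaping myeloid cells, which carry the receptors.

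The libraries held 64281850 to 86010100 counts in genes, and a count of 0 allowed up to 0.0335 to 0.0458 CPM (3 counts; CPM is a count scaled to a common library size, with TMM). Such limits, and the intervals on counts given here, cover counting error only. Of the genes tested, 10.6% were called lower and 6.75% higher with ACBI1 (edgeR's quasi-likelihood test, Benjamini-Hochberg adjusted p under 0.05), and the median log2 change was 0.01. Of all calls, 61.2% were falls, or 51.5% when scaled by library size only. The 7 epithelial markers summed to 984 to 1044 CPM with DMSO and 205 to 325 CPM with ACBI1. KRT7 made up most of this sum with DMSO (678 and 680 CPM, against 179 and 60.3 CPM with ACBI1). The keratin genes KRT7, KRT8, KRT18 and KRT19 were called lower, KRT18 not without ACBI1 replicate 1, and EPCAM was not called. The log2 change of EPCAM was in the other direction, at 1.32 (edgeR adjusted p 0.179). It had 5.38 and 2.78 CPM with DMSO and 15.6 and 4.84 CPM with ACBI1, so its libraries overlapped. CDH1, the epithelial cadherin, had 4 to 16 counts a library, so this defining marker was nearly absent in both groups.

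The genes lie on different chromosomes (GRCh38, GENCODE 29; hg38 is the build in the submitters' processing notes), except that CSF1 and CSF3R share chromosome 1. CSF2 occupies chr5:132073790-132076170 and CSF3 chr17:40015361-40017813, both on the plus strand. CSF1 occupies chr1:109910242-109930992 and IL34 chr16:70579895-70660682, also on the plus strand. KITLG lies at chr12:88492793-88580851 on the minus strand, and exons of a neighbouring transcript overlap 1.29% of its exonic length. No exon of another annotated gene overlaps those of the other ligands. The strand setting of the counting is not given in the sources used here, and its effect on these counts was not tested.

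Transcripts of CSF2, CSF3 and CSF1 fell with ACBI1, while KITLG and IL34 were not called. So 3 of the 5 ligands tested were called lower and none higher, where 10.6% and 6.75% of all genes tested were. The same 3 were the ligands in which both ACBI1 libraries lay below both DMSO libraries, a separation that 32.2% of all genes tested had. CSF2 and CSF3 went from abundant to barely detected, CSF1 fell but stayed readily detected, and the 2 receptor genes yielded at most 1 count in a library.

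**Figure D1:**
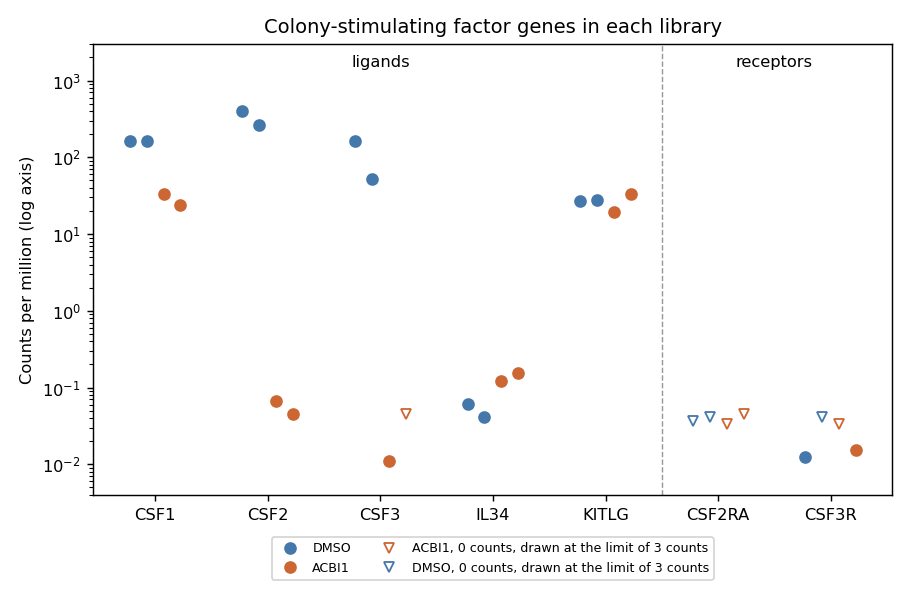
Level of each of the 7 genes in each library, in CPM on a log axis; every point is 1 library, and an open triangle is a library with 0 counts drawn at the 3-count limit. CSF1, CSF2 and CSF3 lie lower in both ACBI1 libraries, and IL34 lies higher in both but at few counts. KITLG does not separate the groups, and the receptors stay at or near 0. The limit lies above points that rest on 1 count, so a triangle can stand higher than a library with a count.

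CSF2, which encodes the factor that activates macrophages and granulocytes, was the most abundant ligand with DMSO. It had 33047 and 18690 counts in DMSO replicates 1 and 2 (406 and 260 CPM) and 6 and 3 counts in ACBI1 replicates 1 and 2 (0.067 and 0.0458 CPM). The DMSO libraries were high and both ACBI1 libraries close to the detection limit, with no overlap. The log2 change was -12.45 (SE 0.433), with an edgeR adjusted p of 7e-04. Per scaled library size the DMSO counts were 5813 times those with ACBI1 (95% Clopper-Pearson interval 3062 to 12713).

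CSF2 is a compact gene of 4 exons with a promoter whose control by inducible factors is well known. The 250 bases before its start are printed here because, of the ligands that became barely detected, CSF2 is the one resting on more counts (RefSeq, GRCh38.p14, chr5:132073539-132073788, plus strand). Capitals mark, from left to right, GAGATTCC, the core of the cytokine element CK-1, and TGTGGT, the core of RUNX sites.
CSF2 promoter: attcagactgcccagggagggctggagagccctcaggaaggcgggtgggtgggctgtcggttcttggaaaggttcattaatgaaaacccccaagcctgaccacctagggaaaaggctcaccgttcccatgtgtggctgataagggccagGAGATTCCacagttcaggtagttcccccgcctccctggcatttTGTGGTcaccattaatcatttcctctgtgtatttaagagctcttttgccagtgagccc

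GAGATTCC began at base -101 and TGTGGT at base -58 from the start, and the matches do not overlap. On either strand, GAGATTCC occurred in 0.738% of 34961 promoter windows of the same length, and TGTGGT in 11% of them. The AP-1 motif TGANTCA (6.54% of windows), the C/EBP motif TTNNGNAA (33.2%), the TATA box TATAAA (10.7%) and the NF-kB consensus (5.21%) had no match in this CSF2 window, which says only that those letters are not there. Sites that differ from these letters, such as other forms of NF-kB and TATA sites, were not searched for. The motifs were picked after the sequence was seen. Of the 7 genes, 4 had an entry in the promoter table, and CSF1, CSF3 and IL34 had none.

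CSF3 encodes the growth factor of neutrophils. It had 13362 counts in DMSO replicate 1 and 3807 in DMSO replicate 2 (164 and 52.9 CPM), and 1 and 0 counts in ACBI1 replicates 1 and 2. The DMSO libraries differed more for CSF3 than for any other ligand tested, yet both lay far above the ACBI1 libraries. The DMSO counts were 17361 times those with ACBI1 per scaled library size (95% Clopper-Pearson interval 3116 to 685760). edgeR fitted -13.72 on the log2 scale (SE 1.03, adjusted p 0.00231), a value that depends on the prior count because it rests on 1 count with ACBI1. Leaving out a library moved it between -15.95 (without ACBI1 replicate 1) and -12.67 (without DMSO replicate 1). CSF3 counts per CSF2 count were 0.404 and 0.204 in DMSO replicates 1 and 2, so the mix of the 2 factors also differed between control libraries.

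Short-lived cytokine mRNAs often carry AU-rich elements, repeats of ATTTA after the stop codon that recruit decay proteins. CSF2 had 8 ATTTA matches in 318 bases of the untranslated region after the stop codon and CSF3 had 7 in 854 bases (GENCODE 29 principal transcripts, transcript strand only, overlaps counted). CSF1 had 4 in 2154 bases, KITLG 21 in 4426 bases and IL34 0 in 495 bases. At least 6 matches were present in 21.1% of 18862 genes with such a region. The longer form TTATTTATT occurred 3 times in CSF2 and was absent from the other 4 ligands, and 0.626% of genes had it at least 3 times. The 30 bases with the most matches are shown for both transcripts that became barely detected, with ATTTA in capitals, because they show how closely the repeats are packed.
CSF2 from base 220 after the stop codon: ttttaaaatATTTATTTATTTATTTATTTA
CSF3 from base 16 after the stop codon: tcccatgtATTTAtctctATTTAatATTTA

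In CSF2 the pentamers overlap end to end, while in CSF3 they are spaced by other bases. CSF2 and CSF3 thus had more matches per base than CSF1 and KITLG, whose regions are longer. RNA stability was not measured here.

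CSF1 encodes the main growth factor of macrophages and is made in secreted and membrane-bound forms, which counts per gene cannot tell apart. It had 163 and 164 CPM with DMSO and 32.9 and 24.2 CPM with ACBI1 in replicates 1 and 2. The DMSO libraries were nearly equal and both ACBI1 libraries were lower. The log2 change of CSF1 was -2.52 (SE 0.204, adjusted p 0.00243). It rested on 25041 counts against 4530, which per scaled library size is a separate, unfitted ratio of 5.59. Of the genes tested, 4.01% had a log2 change at or below that of CSF1.

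IL34, the other ligand of CSF1R, had 5 and 3 counts with DMSO and 11 and 10 with ACBI1. Both ACBI1 libraries were above both DMSO libraries, opposite to CSF1, but all 4 values were below 0.2 CPM. The log2 change of IL34 was 1.37 (SE 0.617, adjusted p 0.178), which did not pass the threshold, and the 95% interval of the fit ran from -0.13 to 2.87. A rise of IL34 was therefore not established at this depth, and neither was its absence.

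KITLG, the ligand of KIT, had 26.7 and 27.4 CPM with DMSO and 19.5 and 33.7 CPM with ACBI1. The ACBI1 libraries lay on either side of the DMSO libraries. Its log2 change of -0.03 (SE 0.273, adjusted p 0.961) was not called, and the 95% interval of the fit ran from -0.69 to 0.64, so a change of that size in either direction could not be told from 0. The sign turned to 0.33 without ACBI1 replicate 1 (adjusted p 0.494, over a range of 0.307 to 0.99 with a library left out) and to 0.06 under scaling by library size only. A log2 change within 0.1 of 0 was found in 12.3% of the genes tested.

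The contrast between ligands can be read inside each library, where no scaling enters. CSF1 counts per KITLG count were 6.10 and 5.97 with DMSO and 1.69 and 0.718 with ACBI1. CSF2 counts per KITLG count were 15.2 and 9.47 with DMSO and 0.00344 and 0.00136 with ACBI1. Both ratios were lower in both ACBI1 libraries. No test of these ratios was run, since with 2 libraries against 2 an exact permutation test of a single value cannot go below a two-sided p of 0.333.

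Levels of different genes were set side by side per exonic length, as RPKM (CPM per 1000 bases of merged exons). With DMSO the order was CSF2 (423 ± 131 RPKM), CSF3 (48.9 ± 35.4), CSF1 (30.1 ± 0.14), KITLG (4.36 ± 0.0858) and IL34 (0.0231 ± 0.00624; SD, n = 2 libraries each). CSF3 and CSF1 did not differ beyond their spread in this order, and the other neighbours did. With ACBI1, CSF1 (5.27 ± 1.13 RPKM) and KITLG (4.29 ± 1.62) led, with overlapping libraries. CSF2 (0.0717 ± 0.0191) and IL34 (0.0617 ± 0.00939) followed, also overlapping, and CSF3 came last with 1 count. The summed RPKM of the 5 ligands was 624 and 389 with DMSO and 9.36 and 10.0 with ACBI1.

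**Figure D2:**
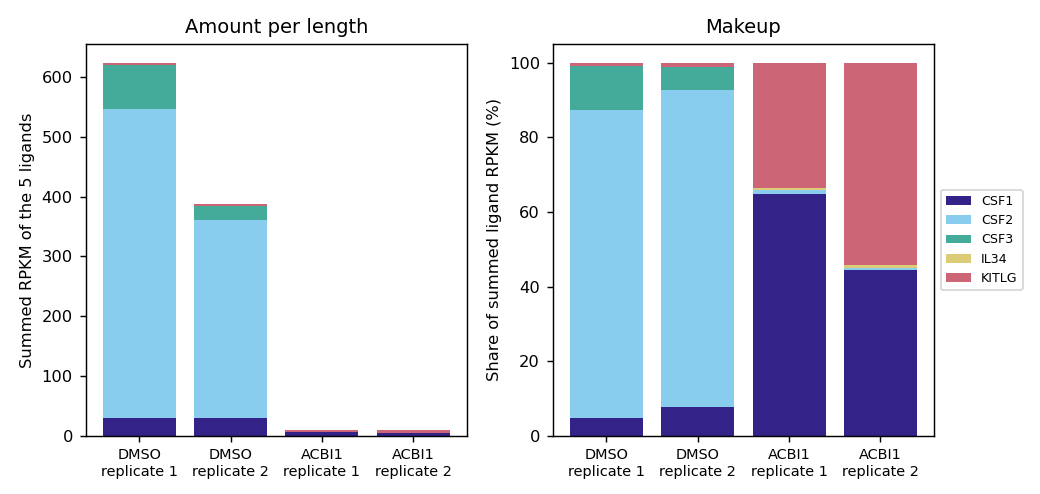
Left, RPKM of the 5 ligands stacked in each library; right, the same as shares of their sum in percent. CSF2 makes up 82.6% and 84.9% of the ligand RPKM in the DMSO libraries and under 1% in the ACBI1 libraries, where CSF1 and KITLG make up nearly all of the much smaller sum.

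On the receptor side there was almost nothing to compare. CSF3R had 1 and 0 counts with DMSO and 0 and 1 with ACBI1 (chr1:36466043-36483278, minus strand), so no difference was detectable. CSF2RA had 0 counts in every library, but this value cannot be read as absence. The gene lies in the pseudoautosomal region, which is identical on X and Y (chrX:1268800-1310381), and counting tools commonly set aside reads that align equally to both copies. Besides CSF2RA and IL3RA, the chain for IL-3 in the same region, 11 other pseudoautosomal genes were looked up, and 10 of them had 0 counts in every library. They included SLC25A6, a mitochondrial ADP/ATP carrier, and CD99, a surface protein, which nearly all cells express. The remaining gene, GTPBP6, had 1 count in each of 2 libraries. CSF2RA and IL3RA, which also had 0 counts, could therefore not be judged from these files.

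The receptors that pair with the ligands were also scarce. CSF1R had 6 and 7 counts with DMSO and 4 and 0 with ACBI1, too few to be tested. KIT had 0 counts in each library, and CSF2RB had 1 count in ACBI1 replicate 1 and 0 in the others. CSF2RB is not pseudoautosomal, and the GM-CSF receptor needs both chains. A count of 0 allows CSF2RB up to the 3-count limit in each of those libraries. Of the 8 further receptor chains, 2 could be tested and both were called higher, as were 6.75% of all genes tested. They are SDC1 and PTPRZ1, cell-surface proteins described as additional binding partners of IL34. PTPRZ1 had enough reads to be tested only because of its ACBI1 libraries, so being tested already favoured a rise. CSF1R, with fewer counts with ACBI1, was not tested. The 2 calls are therefore not a result about the receptor chains as a set. SDC1 went from 58.9 and 61.7 CPM to 96.0 and 120 CPM (log2 change 0.84, adjusted p 0.0264), a call lost without ACBI1 replicate 2. PTPRZ1 had 4 and 11 counts against 44 and 39 (log2 change 2.43, adjusted p 0.0446), a call lost without DMSO replicate 1 and without either ACBI1 library.

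Markers of cells that could carry these receptors, or make these ligands in place of the tumour line, were read beside the members. Myeloid markers summed to 0.565 to 1.38 CPM with DMSO and 0.656 to 0.905 CPM with ACBI1 over 11 genes. CD163 and FCGR3A were at 0, and PTPRC had no more than 2 counts. CD14 had 17 and 47 counts with DMSO and 10 and 15 with ACBI1. ITGAM had 8 and 20 against 42 and 11, and SPI1 had 6 and 12 against 12 and 8. These 3 were tested, and none was called. The 5 mast cell markers had no more than 2 counts in any library. Fibroblast markers summed to 356 to 790 CPM with DMSO and 71.7 to 223 CPM with ACBI1 over 6 genes. Of these, 3 were called lower, while THY1 was at 0 with DMSO. COL1A1, a collagen gene, made up most of the fibroblast sum (324 and 693 CPM with DMSO, 62.3 and 210 CPM with ACBI1). It was not called (log2 change -1.90, edgeR adjusted p 0.086). Endothelial markers summed to 12.7 to 49.0 CPM with DMSO and 0.107 to 0.123 CPM with ACBI1 over 4 genes, 2 of them called lower. PECAM1 made up nearly all of the endothelial sum with DMSO (12.2 and 48.1 CPM), and CDH5, a defining endothelial cadherin, had at most 4 counts. Without ACBI1 replicate 1, VWF among the endothelial calls and LUM among the fibroblast calls were lost. The summed fibroblast and endothelial markers, carried with DMSO mostly by COL1A1 and PECAM1, moved in the direction of CSF1, CSF2 and CSF3. Their link to that result was not tested. Over all genes tested, 10.6% were called lower. The labels name no cells other than H1792, so these transcripts do not show that fibroblasts or endothelial cells were present. Fewer cells with a transcript and less of it per cell cannot be told apart in bulk RNA.

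Other growth factors for blood cells were looked up from a list of 12, of which 7 could be tested. With ACBI1 5 were called lower and 1 higher (10.6% and 6.75% of all genes tested). The median log2 change was -2.60, against 0.01 over all genes. IL6, a driver of acute-phase and myeloid responses, had 316 and 134 CPM with DMSO and 2.33 and 1.69 CPM with ACBI1 (log2 change -6.80, adjusted p 0.00231). LIF, of the same cytokine family, went from 556 and 339 to 72.8 and 43.9 CPM (log2 change -2.94, adjusted p 0.00645), and IL11 from 4.03 and 1.61 to 0.369 and 0.229 CPM (log2 change -3.22, adjusted p 0.0181). FLT3LG, a dendritic cell growth factor, had 13 and 12 counts against 3 and 1. Its log2 change of -2.60 had an adjusted p that rounds to 0.05, and the call was lost with any library left out, with DESeq2, with no filter and under scaling by library size only. The gene called higher was IL7, a lymphocyte growth factor named here after its values were seen (log2 change 1.34, adjusted p 0.0398), and its call was lost without DMSO replicate 1 and without either ACBI1 library. IL3, the close genomic neighbour and functional relative of CSF2, had 1 count in all.

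The list of inducers holds genes known to switch on CSF2 and CSF3. Of 13 genes for IL-1, TNF and IL-17 input, all tested, 6 were called lower and 1 higher (10.6% and 6.75% of all genes tested). The median log2 change was -0.84. IL1B, a ligand of the IL-1 receptor, had 651 and 321 CPM with DMSO and 0.0559 and 0.0153 CPM with ACBI1 (log2 change -13.57, adjusted p 0.00126). IL1A, the other such ligand, had 339 and 199 CPM against 1.53 and 0.976 CPM (log2 change -7.73, adjusted p 0.00141). Both were thus lower in both ACBI1 libraries, as CSF2 and CSF3 were. Their receptor gene IL1R1 had 41.2 and 85.5 CPM with DMSO and 13.5 and 15.2 CPM with ACBI1 (log2 change -2.14, adjusted p 0.0137). TNF went from 3.77 and 3.32 to 0.212 and 0.244 CPM (log2 change -3.95, adjusted p 0.00361). The gene called higher was IRAK1, a kinase of the IL-1 receptor, named after its values were seen (log2 change 0.79, adjusted p 0.0358). The IRAK1 call was lost without DMSO replicate 2 and without either ACBI1 library.

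Transcription factors known at CSF promoters numbered 20. All could be tested, and the 6 that passed the threshold were lower with ACBI1 (median log2 change of the list -0.40). Over all genes tested, 10.6% were called lower. The number called lower was 2 without ACBI1 replicate 1 and 5 to 8 with another library left out. NFATC2 went from 24.3 and 20.4 to 6.01 and 6.56 CPM (log2 change -1.83, adjusted p 0.00573). ETS2 stood at -1.60 (adjusted p 0.00459) and CEBPD, a C/EBP factor, at -1.78 (adjusted p 0.0239). JUN, an AP-1 subunit, stood at -1.70 (adjusted p 0.0473), and the calls of JUN and CEBPD were lost without ACBI1 replicate 1. The NF-kB subunit genes were not called. Their log2 changes were -0.49 for NFKB1, -0.00 for NFKB2, 0.50 for RELA, 0.51 for RELB and 0.56 for REL.

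**Figure D3:**
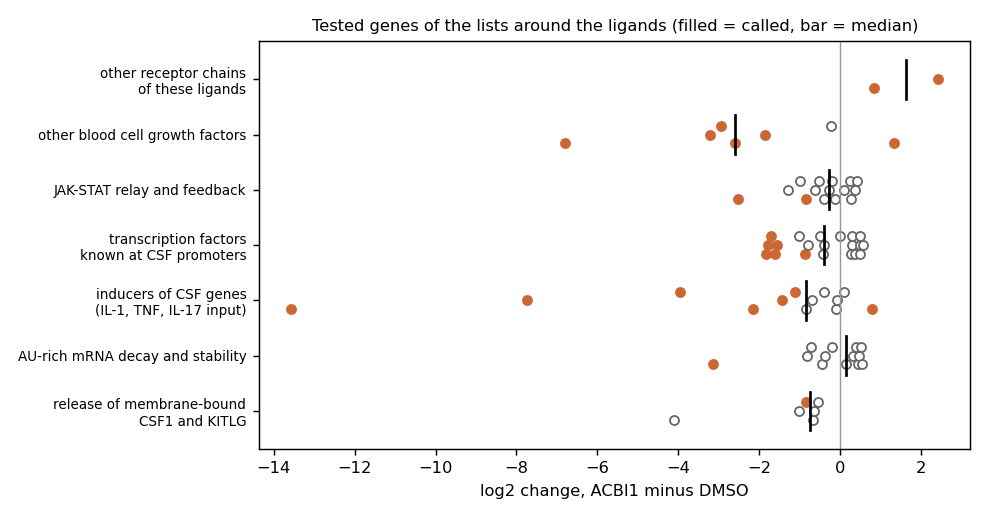
log2 change (ACBI1 minus DMSO) of each tested gene in the 7 lists around the ligands; filled points were called, and the bar is the list's median. The growth factor and inducer lists reach far to the left, and the decay and JAK-STAT lists stay near 0 apart from a few genes.

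Of 13 genes for the decay and stability of cytokine or AU-rich mRNAs, all tested, 1 was called lower (10.6% of all genes tested). The median log2 change was 0.15. The gene called was ZC3H12A, which encodes the cytokine-mRNA nuclease Regnase-1. It had 175 and 258 CPM with DMSO and 18.5 and 31.1 CPM with ACBI1 (log2 change -3.13, adjusted p 0.00459). ZFP36, which encodes the decay protein tristetraprolin, was not called (log2 change -0.82, adjusted p 0.2), and its libraries overlapped. Without DMSO replicate 1 the median of this list was -0.02, with 3 genes called lower and 1 higher.

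JAK-STAT genes relay the signal of the cytokine receptors or feed back on it. Of 16 listed, 15 were tested and 2 were called, both lower, beside 10.6% of all genes tested. The median log2 change of the list was -0.28. SOCS1, a feedback inhibitor, had 3.08 and 7.35 CPM with DMSO and 1.02 and 0.778 CPM with ACBI1 (log2 change -2.53, adjusted p 0.023). BCL2L1, a survival gene, stood at -0.85 (adjusted p 0.0202). Both calls were lost without either of the ACBI1 libraries, and 4 genes were called lower without DMSO replicate 1. JAK2, STAT5A and STAT5B, the relay of the GM-CSF receptor, had log2 changes of -0.28, -0.40 and 0.11 and were not called. Among 6 genes acting for or against the release of membrane-bound CSF1 and KITLG, 1 was called lower (10.6% of all genes tested). Their median log2 change was -0.75. The called gene was RHBDF1, which helps the sheddase ADAM17 mature (log2 change -0.83, adjusted p 0.0317). Its call was lost without DMSO replicate 2 and without either ACBI1 library. ADAM17 itself was not called (log2 change -0.67, adjusted p 0.0568). TIMP3, an inhibitor of such release, had the largest change of the list and was not called (log2 change -4.11, adjusted p 0.0689). Without DMSO replicate 1, 4 of these genes were called lower, and 2 without ACBI1 replicate 2.

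The 4 nearest protein-coding genes on each side of every ligand gene were read to see whether whole neighbourhoods moved (RefSeq order, 40 genes). Of the 39 found in the files, 30 were tested, and 6 were called lower and 1 higher (10.6% and 6.75% of all genes tested). The median log2 change was -0.19. Near CSF2, 3 of 6 tested neighbours were called lower. P4HA2, a collagen prolyl hydroxylase 114 kb away, went from 243 and 309 to 26.8 and 25.1 CPM (log2 change -3.41, adjusted p 0.00141). PDLIM4, an actin-associated protein 182 kb away, followed at -2.71 (adjusted p 0.00181), and SLC22A4, a transporter 218 kb away, at -2.20 (adjusted p 0.00571). These 3 genes follow one another on one side of CSF2. The next gene on that side, SLC22A5 at 294 kb, was not called (log2 change -0.51, adjusted p 0.0925). ACSL6 and FNIP1 on the other side, at -0.17 and -0.21, were not called either.

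Near CSF3 the picture was different. MED24, 1.29 kb away, had 58.5 and 50.2 CPM with DMSO and 68.1 and 70.1 CPM with ACBI1 (log2 change 0.35, adjusted p 0.183), and PSMD3, 17.5 kb away, a log2 change of 0.31 (adjusted p 0.252). Of the 6 tested neighbours of CSF3, NR1D1, a clock repressor, was called lower (log2 change -1.46, adjusted p 0.017), a call lost without ACBI1 replicate 1. Near CSF1, GSTM3 was called lower (log2 change -1.32, adjusted p 0.00972) and the nearest tested gene, AHCYL1, was not (-0.49, adjusted p 0.0798). Near IL34, ST3GAL2 was called lower (-2.02, adjusted p 0.00594) and VAC14 higher (0.60, adjusted p 0.0488), the latter lost with any library left out. Of the 7 tested neighbours of KITLG, GALNT4 had the smallest adjusted p, 0.0612 (log2 change -1.73, 939 kb away), above the threshold.

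**Figure D4:**
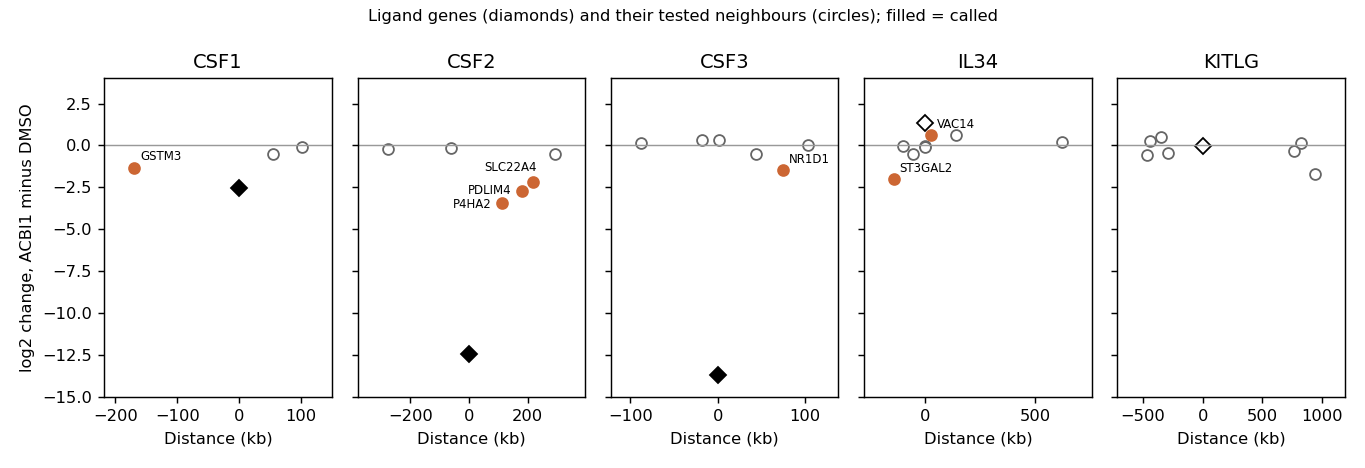
log2 change of each ligand gene (diamond, at 0) and of its tested neighbours (circles) against their distance in kb along the chromosome, negative before the gene; filled symbols were called. The 3 called neighbours of CSF2 lie together on one side, and the neighbours of CSF3 lie between -1.46 and 0.35 while CSF3 is at -13.72.

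The genes whose pattern over the 4 libraries was most like that of each ligand were found by the smallest distance between centred log2(CPM + 0.5) values. For CSF2 they were IL1B (distance 0.611), LCN2 (0.877), an iron-binding protein of inflamed epithelium, and COL15A1 (1.37), a basement membrane collagen. LCN2 had 235 and 125 CPM with DMSO and 0.0335 and 0.0305 CPM with ACBI1. For CSF3 they were IL1A (0.742), COL15A1 (0.849) and C15orf48 (0.907). Their log2 changes were -7.73, -8.65 and -8.28, smaller than the -13.72 of CSF3. The 0.5 added to each CPM narrows differences between values near 0. For CSF1 the distances were smaller, at 0.122 for NAV2, 0.141 for STEAP1B-AS1 and 0.158 for QPCT. STEAP1B-AS1 is antisense to another gene, and without a stated strand setting its reads cannot be assigned with certainty. The 3 features nearest to KITLG are listed by Ensembl ID without a symbol, and none of them was called. With 4 libraries, many genes lie close to any given pattern, so this is a description only.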

How the data were processed

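RNA-seq reads per gene were measured in 2 DMSO and 2 ACBI1 libraries of H1792 cells. The authors deposited raw counts per gene symbol, not normalized, with the 5 summary lines of htseq-count. TopHat2 2.1.1, HTSeq 0.11.0 and hg38 are named in the submitters' processing notes; the annotation and the strand setting are not given in the sources used here. Groups came from the sample titles. The summary lines, 13.9% to 15.4% of reads listed, were left out of library sizes and tests.

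Genes were filtered with filterByExpr (minimum count 10, minimum total count 15), scaled by TMM and tested across all 19159 genes with edgeR 4.0.16 in R 4.3.3 (glmQLFit, glmQLFTest, two-sided, no covariate). The SE is the log2 change divided by the square root of F, and its 95% interval uses the t distribution with the prior degrees of freedom plus 2. CPM use TMM-scaled library sizes. RPKM use merged exon lengths of GENCODE 29. Replicates differed by more than sampling noise (chi-square per degree of freedom 144 for DMSO and 94.9 for ACBI1). Alternatives were other scalings, filters, fits (DESeq2 1.42.0, limma-voom in limma 3.58.1) and thresholds, the replicate number as a block, and leaving out each library. Only the default edgeR and DESeq2 fits were tried on simulated counts, with changes smaller than those of CSF2 and CSF3.

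The members, the gene lists and the rules were chosen with earlier results of these data known. All members are named. In each list the called genes are named, or the 4 with the largest change, besides CSF1R, KIT and CSF2RB, the called neighbours, and the 3 genes most alike each ligand whose own mean was at least 1 CPM. Other genes named were chosen after their values were seen.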

Additional observations from a re-analysis of the deposited data

How the results depend on the processing

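The calls of CSF1, CSF2 and CSF3 held in 10 alternative fits, with log2 changes of -2.53 to -2.43, -12.49 to -12.33 and -14.04 to -13.01, and at both stricter thresholds. They also held with each library left out, where the lone library of a group is assumed to vary like the other group. The log2 change of KITLG turned to 0.06 under scaling by library size only and to 0.00 (positive before rounding) under upper-quartile scaling, and ranged from -0.48 to 0.33 with a library left out. IL34 was called in none of the 9 alternative fits that kept it, with adjusted p from 0.141 to 0.521, nor with a library left out; the filter at a mean of 5 CPM removed it. Over all genes, the number called was 5518 with no filter and 783 at an adjusted p under 0.01. It ranged from 1379 to 4292 with a library left out, where fewer samples remain. With the replicate block it was 7909, and the members called were still 3. Same-numbered libraries deviated together (r = 0.56 across 13798 genes), but the labels give no shared batch and there are only 2 numbers. Of 48 medians of gene lists and neighbours under other scalings or with a library left out, 44 moved by less than the spread between replicates. Transcripts at a few counts (IL34, CSF3R, CSF1R, and CSF2 and CSF3 with ACBI1) are limited by depth.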
